A study of Mus musculus with 6 samples.

Results

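The carbonic anhydrases are a family of zinc enzymes, and 10 of their genes were followed in the stria vascularis, the epithelium of the cochlear lateral wall that secretes potassium into the endolymph. They were Car2, Car3, Car4, Car5b, Car8, Car9, Car11, Car12, Car13 and Car14, and every probe set of the array that carries exactly one of these symbols was taken. This gave 21 of the 45037 probe sets that are not controls, for 10 of the 18193 genes named by a single symbol. Each RNA was read on an Affymetrix Mouse 430 2.0 array, where 1 or more probe sets (groups of short probes) report a gene. The mice were at postnatal day 10, before hearing starts, and differed at Slc26a4, the gene of pendrin, an anion exchanger that carries bicarbonate. Heterozygous mice gave 3 arrays, numbered 1, 3 and 5, and knockout mice gave 3, numbered 2, 4 and 6. All the animals therefore carried at least 1 disrupted Slc26a4 copy, and no wild-type animal was among them. The kind of disruption, the strain and any pooling of animals are not given in the sources used here, nor is it stated that arrays came from separate animals, so the p-values refer only to variation among these 6 arrays, which may be technical in part.

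Carbonic anhydrases convert carbon dioxide and water to bicarbonate and a proton, and back. The family members differ in where they work: in the cytosol, in mitochondria, or on the outer face of the cell membrane, and a few have lost the enzymatic activity. In the cochlear lateral wall they are known from the stria and from the fibrocytes of the spiral ligament behind it, and they turn over the bicarbonate that pendrin and other anion exchangers carry.

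The tissue carried its own markers. Signals averaged over the heterozygous arrays were 5677 for Kcnq1 and 5111 for Kcne1, the potassium channel subunits of marginal cells, 5275 for Tyr, the tyrosinase of the pigmented intermediate cells, and 7931 for Cldn11, which seals the tight junctions between basal cells. Of 14 intermediate cell markers 12 were bright enough to be tested. Dct was the brightest at 10284, but Pmel stood at 96.8, and Oca2 at 17.3 and Tyrp1 at 6.07 were too dim to be tested. The spiral ligament was present too, with Otos, a fibrocyte protein, at 5331 in the heterozygous arrays. Slc26a4 itself gave 221, 248 and 1006 in heterozygous and 75.5, 106 and 154 in knockout arrays, with no overlap (log2 -1.69, limma adjusted p = 0.371). Where its probe set lies relative to the disrupted part of the gene is not stated in the labels. The array of knockout replicate 4 had a median correlation of 0.931 with the others over the tested probe sets, against 0.971 to 0.979 for the remaining arrays.

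By array signal the family fell into a bright group, a middle pair and a dim group. Car3 was the brightest, with a mean over the 3 heterozygous arrays of 11072 ± 358 (SD), and was followed by Car2 at 6247 ± 401, Car12 at 4677 ± 29.8, Car14 at 4049 ± 313 and Car13 at 1876 ± 205. Car8 at 414 ± 24.5 and Car11 at 411 ± 55.3 formed the middle pair, and Car5b at 82.3 ± 26.1, Car4 at 30.0 ± 4.27 and Car9 at 13.7 ± 6.59 the dim end. Car3 came first and Car2 second on all 6 arrays. Car12 lay above Car14 on 5 of 6 arrays, the exception being knockout replicate 2. Their ranges were apart among heterozygous arrays and overlapped among knockout arrays. Car8 and Car11 traded places between arrays of both genotypes, so this pair was not separated beyond its spread. The knockout arrays gave the same order, except that Car11 at 400.1 stood before Car8 at 368. Signals of different probe sets depend on how well their probes bind, so this is an order of array signals and not of transcript numbers. With the mean over all probe sets of a gene in place of the brightest one, 5 of the 10 genes changed rank, with Car2 now first, Car14 second and Car3 in the third place.

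**Figure D1:**
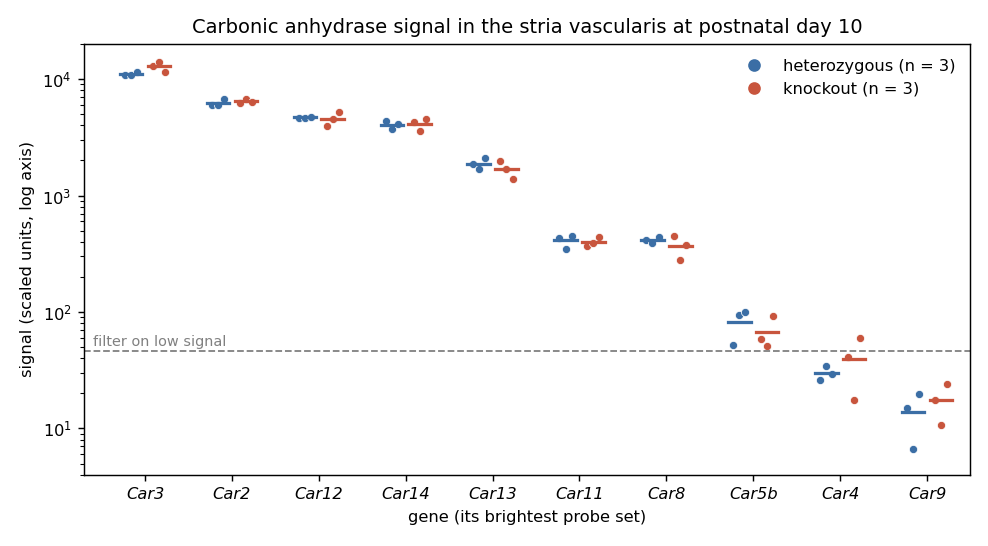
Signal of each carbonic anhydrase (vertical log axis, scaled units) at its brightest probe set, with a point for each array and a bar for the mean of 3 arrays per genotype; the dashed line is the filter on low signal. The genes span from Car3 at 11072 down to Car9 at 13.7 in heterozygous arrays, and the genotypes lie side by side for every gene.

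Car9 and Car12 are textbook targets of hypoxia-inducible factors in human tumour cells, and Car14 is a close relative of Car12, so the start regions of these 3 genes are shown. Each window runs from 250 bases before to 50 bases after the annotated start site (RefSeq, GRCm38.p6) and is written 5′ to 3′ along the gene's strand. Capitals mark ACGTG, a form of the core letters bound by hypoxia-inducible factors. It was searched on both strands, where CACGT is the same motif read on the opposite strand. Other forms of the core were not searched. The windows are chr4:43506776-43507075 on the plus strand for Car9, chr3:95904636-95904935 on the minus strand for Car14 and chr9:66713436-66713735 on the plus strand for Car12.
Car9: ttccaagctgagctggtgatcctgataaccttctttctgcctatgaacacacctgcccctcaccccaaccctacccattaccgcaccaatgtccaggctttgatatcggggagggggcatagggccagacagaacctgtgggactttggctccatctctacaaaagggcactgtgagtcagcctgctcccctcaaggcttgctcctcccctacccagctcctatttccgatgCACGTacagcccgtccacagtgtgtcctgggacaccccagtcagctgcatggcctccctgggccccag
Car14: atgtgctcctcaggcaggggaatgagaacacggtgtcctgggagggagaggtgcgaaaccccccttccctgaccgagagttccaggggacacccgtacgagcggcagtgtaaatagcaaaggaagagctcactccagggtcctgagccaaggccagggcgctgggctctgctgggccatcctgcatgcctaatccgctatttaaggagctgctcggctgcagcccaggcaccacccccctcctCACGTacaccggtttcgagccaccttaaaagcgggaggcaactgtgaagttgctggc
Car12: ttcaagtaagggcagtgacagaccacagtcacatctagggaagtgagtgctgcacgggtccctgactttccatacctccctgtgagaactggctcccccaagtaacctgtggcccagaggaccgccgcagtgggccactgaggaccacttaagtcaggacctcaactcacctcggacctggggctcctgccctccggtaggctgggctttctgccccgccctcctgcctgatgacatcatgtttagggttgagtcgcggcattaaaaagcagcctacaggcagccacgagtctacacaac
The motif began 18 bases before the start site of Car9 and 7 bases before that of Car14, on the opposite strand in both, and these letters were not in the Car12 window. Of the 6 members with a window in the table, 3 held the motif, the other being Car4, against 19.6% of all 32851 windows of this length. Of the 2 genes with these letters just before the start site, Car9 was the dimmest member and Car14 was in the bright group. The match is a description of letters and not of factor binding.

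No carbonic anhydrase passed the test between genotypes. Of the 21 probe sets, 16 passed the filter on low signal (a mean over all arrays of at least 46.3), and these stood for 8 genes, all but Car4 and Car9. At a limma adjusted p under 0.05, 0 of the 16 were called, beside 0.00370% of the 27022 probe sets tested. At an unadjusted p under 0.05 there was 1 of 16, a Car3 probe set, beside 11.7% over all. It was higher in knockout arrays, as were 9.20% of all probe sets tested, and 0 of 16 passed on the lower side, beside 2.48%. With 1 probe set a gene the 2 sides were balanced, at 399 genes higher and 401 lower of 12421. The lowest adjusted p among the 16 was 0.374 and the highest 0.972. Taking the brightest probe set of each gene, 3 of the 8 tested genes had a positive and 5 a negative log2 difference (knockout minus heterozygous, on log2(signal + 16)), with a median of -0.04, which was also the median of all 12421 tested genes. The median size of the difference, sign left aside, was 0.10 for the 8 and 0.15 for all tested genes. Among the 5014 tested genes with a mean signal of at least 1000, the median standard error of the log2 difference was 0.14, and for the 5 carbonic anhydrases among them it was 0.11.

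**Figure D2:**
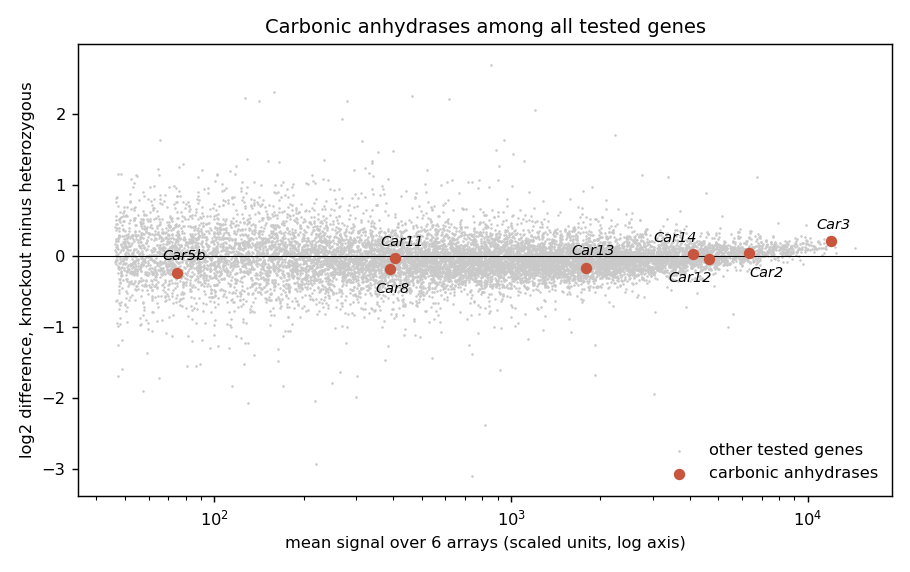
Log2 difference between knockout and heterozygous arrays (vertical) against mean signal over 6 arrays (horizontal log axis) for 12421 tested genes in grey and the 8 tested carbonic anhydrases in red. The red points lie inside the grey cloud, between -0.23 for Car5b and 0.21 for Car3.

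Car3 and Car2, both cytosolic enzymes, came first in signal at their brightest probe sets. Car2 is the fast and widely used cytosolic form, found also in red blood cells and in the acid-secreting osteoclasts of bone. Its only probe set gave 6022, 6010 and 6709.7 in heterozygous and 6206, 6690 and 6392 in knockout arrays. The ranges overlapped almost fully. This amounted to a log2 difference of 0.04 ± 0.08 (SE, adjusted p = 0.877 by limma), with a 95% interval of the fold from 0.908 to 1.17. Its sign turned with quantile normalisation and with array weights.

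Markers of other cells that use Car2 were set beside it, and their part in the Car2 values was not tested. Of 7 erythrocyte markers on the array 2 passed the filter, and the summed signal of the 7 ran from 202 to 419 in heterozygous and from 156 to 228 in knockout arrays. Of 13 osteoclast markers 8 passed the filter. The summed signal of all 13 was 7071 to 7250.1 in heterozygous and 8047 to 8818 in knockout arrays, without overlap. Much of it came from Ostm1, at 4319 ± 78.9 and 4726 ± 264 (SD, n = 3 each). At an unadjusted limma p under 0.05, 3 of the 8 tested genes, Mmp9, Ctsk and Acp5, were higher in knockout and 0 lower. The share over all tested genes was 6.44%. The defining osteoclast enzyme Acp5 stood at 54.0 ± 15.7 and 203 ± 180.0 (SD, n = 3 each), and none of the list was called. In bulk tissue, a different number of cells of a type and a different amount of RNA per cell cannot be told apart.

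Car3, a cytosolic form with low activity that is best known from skeletal muscle, liver and fat, was the member with the smallest p. Its brightest probe set, 1449434_at, gave 10935, 10803 and 11478 in heterozygous arrays and 13043, 13912 and 11518 in knockout arrays. Each knockout array lay above each heterozygous one, the closest pair being knockout replicate 6 and heterozygous replicate 5. The log2 difference was 0.21 ± 0.08 (SE), a 1.15-fold difference with a 95% interval from 1.02 to 1.30, and it did not pass (limma adjusted p = 0.374, higher in 3 of 3 knockout arrays). Permuting the arrays exactly, two-sided, gave p = 0.1, and 3 against 3 samples allow no smaller value. With quantile normalisation the log2 difference was 0.08, and over all alternatives it ranged from 0.08 to 0.28 with limma adjusted p from 0.147 to 0.869.

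This probe set sat at the top of the array, where only 7 of 45037 probe sets had a higher mean. Of the 141 other tested genes with a mean signal of at least 8000, a limit chosen after seeing the data, 134 also had a positive log2 difference. Their median was 0.11, and 16 of them reached the difference of Car3 or more. Among these genes 34 had every knockout array above every heterozygous one. Over all tested genes the groups did not overlap, in either direction, for 13.1%.

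The other 3 Car3 probe sets did not separate the genotypes. Probe set 1430584_s_at gave 2326, 1702 and 2479 in heterozygous and 2993, 4023 and 1642 in knockout arrays, so knockout replicate 4 was the highest and knockout replicate 6 the lowest of the 6. Probe set 1453588_at, made from the same source sequence, followed it closely, with 1442, 994 and 1457 against 1797, 2269 and 926 (Pearson r = 0.994 between the 2 over the 6 arrays). Probe set 1460256_at gave 3047, 2254 and 2746 against 3699, 2456 and 2843, and followed the other 2 loosely (r = 0.20 and 0.26 on the same arrays). The log2 differences of the 3 were 0.34, 0.28 and 0.15, with limma adjusted p from 0.685 to 0.769. Without knockout replicate 6 the first rose to 0.69 and the second to 0.65, still with adjusted p of 0.147 and 0.160.

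Markers of muscle and fat, which are known to use Car3, were read on the same arrays, and their part in the Car3 values was not tested. Of 10 skeletal muscle markers 2 passed the filter, and muscle creatine kinase Ckm stood at 19.3 ± 2.92 in heterozygous and 25.2 ± 13.8 in knockout arrays (SD, n = 3 each), with summed signals of 372 to 428 and 342 to 469. Of 6 adipocyte markers on the array 1 passed, Plin4, a lipid droplet protein, at 784 ± 281 and 833 ± 464 (SD, n = 3 each), while the fat hormone Adipoq lay under the filter at 7.78 and 2.57 on average. The summed adipocyte signal was 495 to 1131 in heterozygous and 584 to 1430.0 in knockout arrays, with overlap. All 9 fibrocyte markers of the spiral ligament passed. Their summed signal was 46511 to 55913 in heterozygous and 53426 to 57180 in knockout arrays, with overlap, and their part was likewise not tested. These 9 include Slc12a2 and Gjb2, at 10259 and 8464 in heterozygous arrays on average. Both were also listed as markers of marginal or basal cells, so the sum is not one of fibrocytes alone.

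Car13, another cytosolic form, gave 1868, 1674 and 2084 in heterozygous and 1988, 1692 and 1383 in knockout arrays at its brightest probe set. The ranges overlapped, and knockout replicate 6 was the lowest. Car13 differed by -0.16 ± 0.16 on the log2 scale (SE, limma adjusted p = 0.737, fold interval 0.699 to 1.14). The other 2 probe sets gave 0.02 and -0.03, so the gene showed no shared direction. Car13, Car1, Car3 and Car2 are 4 consecutive protein-coding genes of chromosome 3 in the RefSeq annotation of GRCm38.p6. Car1, a red cell enzyme that lies between Car13 and Car3 in that row, was dim with 31.7 ± 2.19 in heterozygous and 26.4 ± 10.5 in knockout arrays (SD, n = 3 each), under the filter, while its 3 neighbours were in the bright group.

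**Figure D3:**
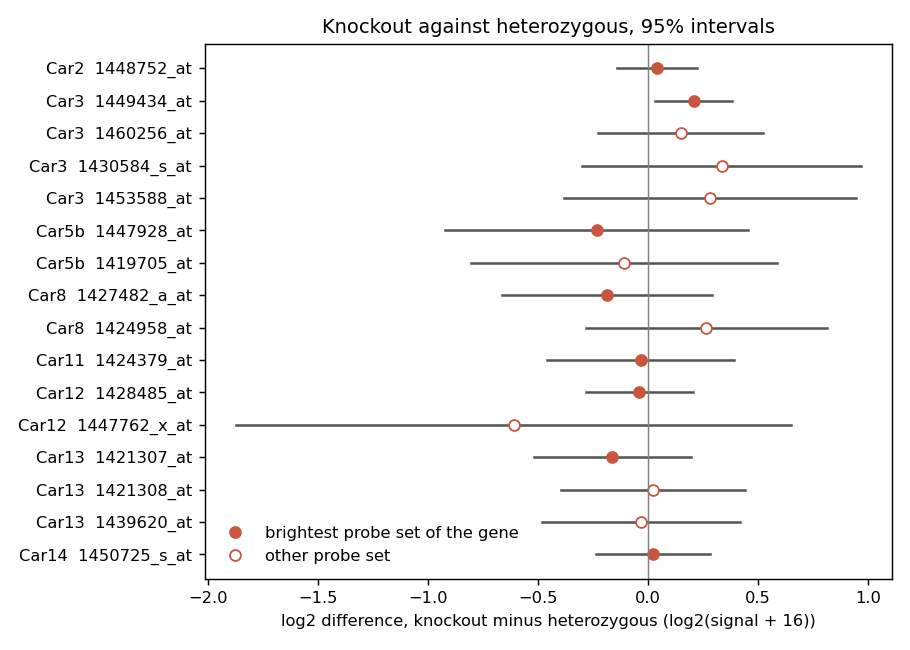
Log2 difference between knockout and heterozygous arrays (horizontal) for the 16 tested carbonic anhydrase probe sets, with lines for the unadjusted 95% interval of the limma fit; filled points are the brightest probe set of a gene. The interval of Car3 1449434_at, from 0.03 to 0.38, is the only one of the 16 that does not include 0, and that of Car12 1447762_x_at is the widest.

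Among the forms held in the cell membrane with the active site outside, Car12 and Car14 were bright. Car12 stood at 4648, 4674 and 4708 in heterozygous arrays, a coefficient of variation of 0.637%, and at 3965, 4575 and 5208 in knockout arrays, a coefficient of 13.6%. The knockout arrays thus lay on both sides of the narrow heterozygous range. Between the means Car12 differed by -0.04 ± 0.11 on the log2 scale (SE, limma adjusted p = 0.920, fold interval 0.823 to 1.15). The median coefficient of variation of tested genes with a mean of at least 1000 was 6.86% in heterozygous and 12.4% in knockout arrays, so other bright genes too varied more among knockout arrays. A further Car12 probe set, 1447762_x_at, whose suffix marks probes that may also bind other transcripts, ran from 239 in knockout replicate 2 to 1523 in knockout replicate 6, with heterozygous arrays at 663, 1340.2 and 618. Knockout minus heterozygous it stood at -0.61 on the log2 scale (adjusted p = 0.718 by limma), and at -1.36 without knockout replicate 6 (adjusted p = 0.147). The remaining Car12 probe set lay under the filter, at 29.2 and 29.4 on average.

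Car14 is also known from epithelia of the kidney, eye and nervous system. Its single probe set gave 4323, 3708 and 4116 in heterozygous and 4307, 3549.6 and 4538 in knockout arrays. Heterozygous replicate 3 and knockout replicate 4 were low, and the genotypes overlapped throughout. Car14 differed by 0.02 ± 0.12 on the log2 scale (SE, limma adjusted p = 0.953, fold interval 0.849 to 1.22).

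Car4 and Car9, the other membrane forms, were not tested because both lay under the filter. Car4 is anchored to the outer membrane by a lipid and is known from capillary endothelium. Its brighter probe set gave 26.0, 34.5 and 29.6 in heterozygous and 41.2, 17.4 and 60.4 in knockout arrays. Its other probe set gave 13.5, 29.7 and 29.2 against 43.3, 14.2 and 62.4. Both probe sets were highest in knockout replicate 6 and second in knockout replicate 2 (r = 0.946 between them over the 6 arrays), so these low values moved together. Capillary endothelial markers, all 9 above the filter, had summed signals of 6240, 10754 and 6605 in heterozygous and 6445, 2942 and 9741 in knockout arrays. The smallest sum lay in knockout replicate 4, where the brighter Car4 probe set was at its lowest too, and the part of endothelial content in the Car4 values was not tested. Without knockout replicate 4 the Car4 log2 difference of 0.20 became 0.52, and without knockout replicate 6 it was -0.07.

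Car9, the hypoxia-induced form with the motif shown above, gave 14.9, 6.65 and 19.7 in heterozygous and 17.7, 10.8 and 24.2 in knockout arrays. Its mean of 15.7 lay at the 23.6th percentile of all probe sets, and the genotypes overlapped. The dim members nearest to the filter were a Car4 probe set just outside at 34.9 and a Car5b probe set just inside at 54.2.

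Car5b is a mitochondrial form. Its brighter probe set gave 52.3, 94.8 and 99.8 in heterozygous and 58.2, 50.9 and 92.8 in knockout arrays. Each genotype held both low and high arrays. Car5b differed by -0.23 ± 0.31 on the log2 scale (SE, limma adjusted p = 0.810), and the fold interval, 0.528 to 1.37, was the widest among the 8 tested genes. The other probe set gave -0.11. Without heterozygous replicate 1 the difference was -0.48, and without knockout replicate 4 it was -0.09.

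Car8 and Car11 encode carbonic anhydrase-related proteins, which lack the enzymatic activity. Car8 binds the inositol trisphosphate receptor Itpr1, and its loss causes ataxia in mice. Its brightest probe set, 1427482_a_at, gave 411, 391 and 440 in heterozygous and 451, 278 and 376 in knockout arrays. Knockout replicate 4 was the lowest and knockout replicate 2 the highest of all 6. The log2 difference was -0.19 ± 0.21 (SE, limma adjusted p = 0.776, fold interval 0.631 to 1.22). The dimmer probe set 1424958_at went the other way, with 48.0, 48.1 and 52.2 against 59.0, 73.9 and 56.1. Its groups did not overlap, but the difference of 0.27 did not pass either (limma adjusted p = 0.715). With the mean of its probe sets the gene stood at 0.04. The remaining Car8 probe set lay under the filter, at 35.0 and 25.9 on average. Over all members, 2 of 16 tested probe sets had groups that did not overlap, Car8 1424958_at and Car3 1449434_at, both higher in knockout, beside 17.1% of all probe sets tested.

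**Figure D4:**
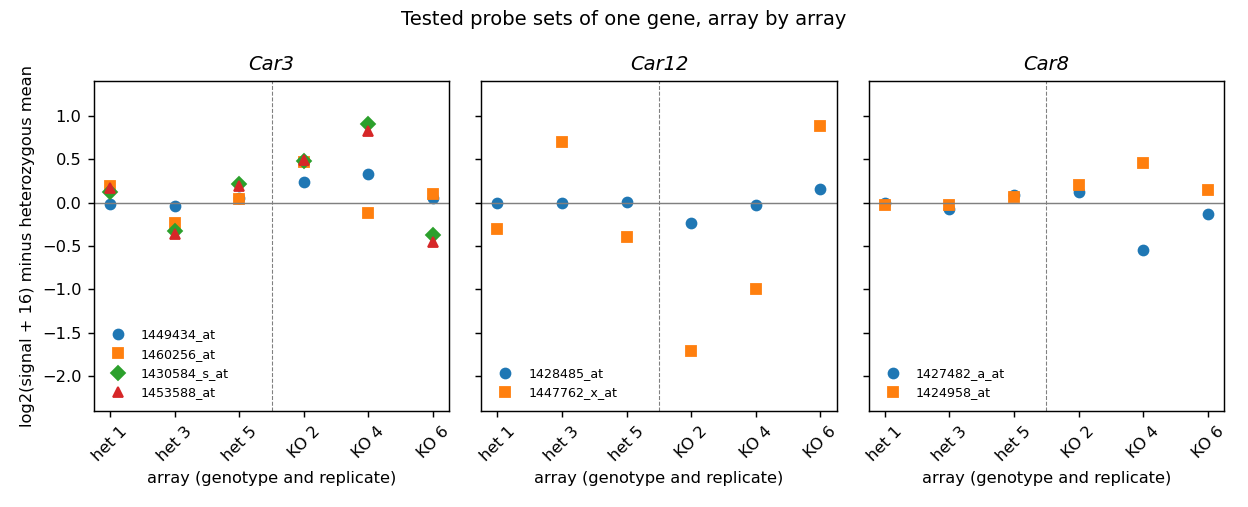
Log2(signal + 16) of each tested probe set of Car3, Car12 and Car8 minus its own heterozygous mean (vertical), for the 6 arrays by genotype and replicate (horizontal, het for heterozygous and KO for knockout). The Car3 pair 1430584_s_at and 1453588_at move together, and the Car8 probe sets part in knockout replicate 4. Car12 1447762_x_at swings more widely than 1428485_at, which is steady only among heterozygous arrays.

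Car11, a secreted related protein known from the brain, gave 433, 348 and 452 in heterozygous and 369, 389 and 442 in knockout arrays. The knockout values lay inside the heterozygous range. Car11 differed by -0.03 ± 0.19 on the log2 scale (SE, limma adjusted p = 0.962, fold interval 0.729 to 1.31), and its sign turned when heterozygous replicate 1 or 5 or knockout replicate 2 was left out.

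The 2 tested members with the smallest p were set against all other tested genes by the Pearson correlation of log2(signal + 16) over the 6 arrays. The genes most like Car3 were 9530082P21Rik (r = 0.998), Elovl5, a fatty acid elongase (0.996), and Srsf11, a splicing factor (0.992), and 383 genes exceeded 0.9. For Car13 they were Dnttip2 (0.973), Smim22 (0.964) and Tsen15 (0.962), with 45 genes above 0.9. High values were thus reached by many genes over these 6 points, which share the same arrays. Knockout replicate 4 stood apart from the rest, and its part in these values was not tested.

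Of the family genes outside the 10, all were dim except the receptor phosphatases Ptprg and Ptprz1, which carry an inactive carbonic anhydrase domain and stood at 1478 ± 322 and 865 ± 289 in heterozygous arrays (SD, n = 3 each). Of 8 such genes 4 were tested and 0 called. Car7, a cytosolic form of neurons, gave 79.3 ± 30.3 and 40.2 ± 38.5 (SD, n = 3 each), with 7.15 in knockout replicate 4 as the lowest, and differed by -0.95 on the log2 scale (adjusted p = 0.487 by limma). Car15, a membrane form, differed by 0.27 (limma adjusted p = 0.741). Car1, Car5a, Car6 and Car10 lay under the filter.

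The genes that move bicarbonate and protons, and genes induced by hypoxia, were read in the same fit. None was called among 10 bicarbonate transporters, 11 proton exchangers, carriers and their regulators, 20 vacuolar proton pump subunits and 17 hypoxia-inducible genes, beside 0.00805% of the 12421 tested genes. The 17 also hold Hif1a, Epas1 and Vhl, which are regulators of the hypoxia response. At an unadjusted p under 0.05 there were 3, 1, 0 and 0 in these lists, beside 6.44% of all tested genes. The medians of their log2 differences were -0.22, -0.06, -0.01 and 0.02, beside -0.04 over all tested genes. The bicarbonate transporters include Slc26a4, the disrupted gene itself, which is among the 3 and enters their median. The median of the bicarbonate transporters was 0.09 without heterozygous replicate 5, -0.43 without heterozygous replicate 1 and -0.49 without knockout replicate 6. Markers of root, spindle and outer sulcus cells, cells next to the stria that are known to carry pendrin, had summed signals of 12743, 15403 and 23379 in heterozygous arrays, highest in replicate 5, and of 10744, 13947 and 14221 in knockout arrays. All 7 markers, Slc26a4 among them, were tested and 0 called, with a median log2 difference of -0.65, and their part in the transporter values was not tested.

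Besides Slc26a4, the bicarbonate transporter with the smallest p was Slc4a4, a sodium bicarbonate cotransporter, at 733 ± 166 in heterozygous and 482 ± 178 in knockout arrays (SD, n = 3 each, log2 difference -0.62, limma adjusted p = 0.414), with overlap. Its other tested probe sets stood at -0.01 and 0.02. The remaining transporter with an unadjusted p under 0.05 was Slc4a3, an anion exchanger, which went the other way. It stood at 143 ± 9.75 and 217 ± 49.9 (SD, n = 3 each, log2 difference 0.52, limma adjusted p = 0.422). Its groups did not overlap, beside 13.1% of all tested genes. Slc16a7, a carrier that moves lactate together with protons, gave 479, 575 and 425 in heterozygous and 265, 171 and 291 in knockout arrays. The groups did not overlap, beside 13.1% of all tested genes, and the log2 difference of -0.999 did not pass (limma adjusted p = 0.371). Slc16a1, its relative, differed by 0.19 (limma adjusted p = 0.514). Among the proton pump subunits, Atp6v1f and Atp6v1a differed by -0.25 and -0.15 (limma adjusted p = 0.437 and 0.589). Both were lower in knockout with groups that did not overlap, beside 13.1% of all tested genes. Of the 20 tested subunits, 10 had a positive and 10 a negative log2 difference. Atp6v0d2, a further subunit, lay under the filter and was not tested. It was higher in knockout without overlap, at 5.68 ± 3.82 in heterozygous and 52.9 ± 39.9 in knockout arrays (SD, n = 3 each). Among the hypoxia-inducible genes, Pdk1, which restrains mitochondrial pyruvate use, and Adm, the vasodilator adrenomedullin, differed by 0.28 and 0.20 (limma adjusted p = 0.431 and 0.445), and both had groups that did not overlap, beside 13.1% of all tested genes. The other Adm probe set stood at -0.01, with overlap. The other 3 Pdk1 probe sets stood at 0.15, 0.18 and 1.29 (limma adjusted p = 0.654, 0.620 and 0.371), and the groups of the last overlapped. Vegfa and Slc2a1, further hypoxia targets, stood at 0.02 and 0.01.

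Shorter lists tied to single members held few tested genes. Of the inositol trisphosphate receptors, Itpr2 and Itpr3 were tested, at 0.02 and 0.04, and of the genes for carbon dioxide, ammonia and glutamine handling, Glud1 and Aqp1 were tested, at -0.26 and 0.14. None of the 4 was called (limma adjusted p of at least 0.573). Glud1 was lower in knockout with groups that did not overlap, beside 13.1% of all tested genes.

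**Figure D5:**
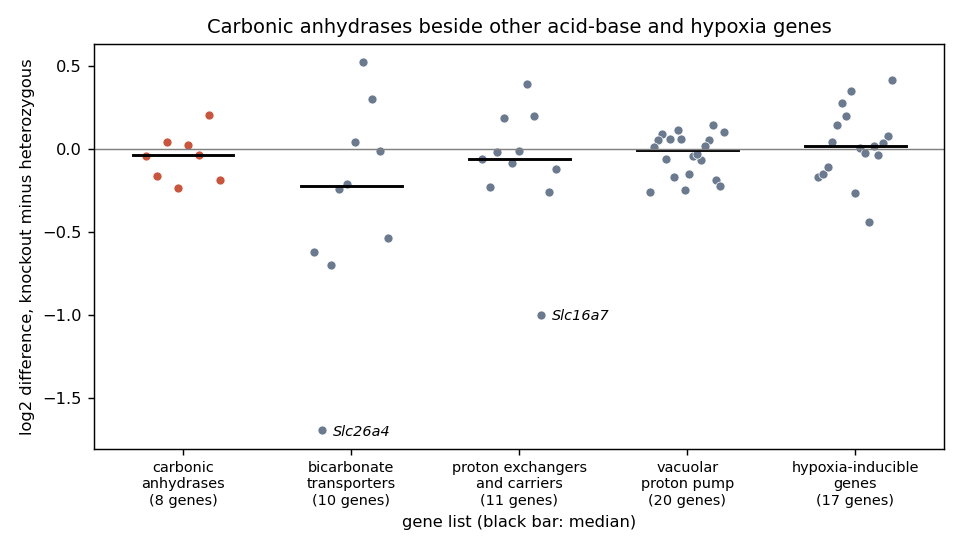
Log2 difference between knockout and heterozygous arrays (vertical) of the 8 tested members of the 10 carbonic anhydrases, at their brightest probe sets, and of each tested gene in 4 related lists (horizontal), with the list median as a black bar. These 8 run from -0.23 to 0.21, while Slc26a4 at -1.69 and Slc16a7 at -0.999 lie lowest in their lists.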

How the data were processed

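Total RNA of the stria vascularis was extracted with a Qiagen kit and labelled with a NuGEN Ovation protocol, per the labels' protocols. The deposited values are signal on a linear scale, which the authors made with GCOS (named in the submitters' processing notes without a version). Every array had a mean of 500 after trimming 2% at either end, so arrays were used as scaled at deposit. Genotype and replicate came from sample titles, and the number of arrays limits the precision.

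The 64 control probe sets were left out. Probe sets with a mean signal under the 40th percentile (46.3) were removed, which left 27022 of 45037. The test was limma 3.58.1 under R 4.3.3 on log2(signal + 16), two-sided, its eBayes step using a variance trend, and p-values were adjusted by Benjamini-Hochberg over all tested probe sets (threshold 0.05). This scale understates the change of dim genes. The test was checked on simulated data. Fold intervals are unadjusted 95% intervals on that scale. Signals are mean ± SD.

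Symbols came from the platform annotation, and the gene identifiers of all 21 member probe sets matched RefSeq GRCm38.p6. The brightest probe set stood for its gene. The members and lists were chosen with earlier results of these data known. Named genes were all members, the 2 smallest p of each pathway list, the 3 most correlated genes of the 2 members with the smallest p, and defining markers. Atp6v0d2, Car1, Ctsk, Dct, Epas1, Gjb2, Hif1a, Mmp9, Oca2, Ostm1, Pmel, Slc12a2, Slc2a1, Slc4a3, Tyrp1, Vegfa, Vhl and the receptor phosphatases were named after their values were seen. Sequences are RefSeq's, and protein sequences were not used here. Alternatives were other offsets, filters, normalisations, variance models, array weights, probe set means and leaving out each array. Figures used matplotlib 3.10.9 in Python 3.11.15.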

Additional observations from a re-analysis of the deposited data

How the results depend on the processing

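The count of called carbonic anhydrase probe sets was 0 under all 16 alternatives, as was that of the acid-base and hypoxia lists. The number of carbonic anhydrase probe sets with an unadjusted p under 0.05 was 1 with all arrays, 0 with quantile normalisation or no variance trend, and 0 to 4 when single arrays were left out. The 4, without knockout replicate 6, were 3 of Car3 and 1 of Car12, and none reached an adjusted p below 0.147. Over all probe sets, 1 was called with all arrays, 0 with no filter or a 60th percentile filter, 3 with quantile normalisation, 2 with cyclic loess, 23 with array weights, and 0 to 13 when single arrays were left out, 13 of them without knockout replicate 4.

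The log2 difference of Car3, Car5b and Car13, at the brightest probe set or the mean of probe sets, kept its sign under every alternative run. Single dimmer probe sets did not all do so. The range was -0.011 to 0.28 for Car3 1460256_at and -0.33 to 0.17 for Car5b 1419705_at. For Car13 it was -0.079 to 0.16 at 1421308_at and -0.11 to 0.12 at 1439620_at. Car3 1430584_s_at and 1453588_at stayed positive. The sign turned for Car2 with quantile normalisation (-0.019) and array weights (-0.016), for Car8 with the mean of its probe sets (0.040), and for Car14 with median centring (-0.011). Leaving out single arrays gave -0.14 to 0.037 for Car11, -0.13 to 0.062 for Car12 and -0.047 to 0.13 for Car14, which crossed 0, and the cause was not tested. The order by signal was the same with quantile normalisation, and 5 genes changed rank when a gene's probe sets were averaged. No paired analysis was run because the labels state no pairing of arrays between the genotypes.

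Both genotypes have 3 arrays, so an exact test of a single gene cannot go below p = 0.1. Probe sets near or under the filter, all those of Car4, Car5b and Car9 and the dimmer ones of Car8 and Car12, carry little signal. They include Car8 1424958_at, whose groups did not overlap.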
